A study of Homo sapiens with 2 samples.

Results

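The clustered protocadherin genes lie side by side on human chromosome 5 and were chosen by symbol, as the protein-coding GENCODE genes there named PCDHA, PCDHAC, PCDHB, PCDHGA, PCDHGB or PCDHGC with a number. There were 53 such genes among 20033 protein-coding genes. They comprise 13 numbered alpha genes, 2 C-type alpha genes, 16 beta genes, 12 gamma A genes, 7 gamma B genes and 3 C-type gamma genes. Accessible chromatin had been mapped by ATAC-seq, in which a transposase tags open DNA, in H1, an established line of human embryonic stem cells. Cells were thawed from frozen stocks, given DNase I for 30 minutes against DNA from dead cells, and had no other treatment. Both samples (n = 2) form 1 group and share 1 deposited list of accessible regions. The labels leave unsaid whether the samples were separate cultures. No value has a replicate spread and no test between samples was possible, so all comparisons are between genes or regions within that list.

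Clustered protocadherins are adhesion proteins of the cell surface. In the alpha and gamma clusters each gene has its own large variable first exon with its own promoter, and its transcript joins that exon to constant exons shared by the whole cluster, whereas a beta gene encodes its protein in a single exon. A neuron uses only some of these promoters, which gives its surface an individual mark, while the C-type genes are used more uniformly. Most of the promoters carry a conserved element with the core CGCT, where the insulator protein CTCF can bind, and alpha variable exons hold a further CTCF site. Distal enhancers, among them HS5-1 downstream of the alpha constant exons, contact the promoters through CTCF and cohesin. The positions of those enhancers were not used here, and regions are named by their neighbours only.

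Most members had the letters CGCT before their starts, and longer shared letters varied by group. The matches nearest the start ran from −95 to −8 bp (minus: upstream). A match of 4 letters alone does not show that the conserved element is present. Within 120 bp before the canonical transcript start, CGCT on the coding strand occurred in 48 of 53 members (90.6%), against 40.4% of all 20033 protein-coding genes. It occurred in 23 of 23 members with a region and in 25 of 30 without one. On the other strand it occurred in 15 of 53 members, against 41.4% of all protein-coding genes. The 8 letters most shared within a group were picked from these sequences themselves. They were ATGTCGCT in 10 of 13 numbered alpha genes, GGTGGCGC in 13 of 16 beta genes, CGCCGCTG in 6 of 12 gamma A genes and CTCTGGGC in 5 of 7 gamma B genes. CGCCGCTG also occurred in 4 of 7 gamma B genes, in 4 of 6 with a region and 0 of 1 without. ATGTCGCT was in 4 of 5 numbered alpha genes with a region and 6 of 8 without, and GGTGGCGC in 6 of 7 beta genes with a region and 7 of 9 without. CGCCGCTG was in 1 of 1 gamma A gene with a region and 5 of 11 without, and CTCTGGGC in 5 of 6 gamma B genes with a region and 0 of 1 without. In the same window and strand, ATGTCGCT occurred in 0.0799% of all protein-coding genes, GGTGGCGC in 0.854%, CGCCGCTG in 1.13% and CTCTGGGC in 0.899%; on the other strand the shares were 0.03%, 0.444%, 1.25% and 0.734%, and no member of the groups had them there. ATGTCGCT and CGCCGCTG contain CGCT, and GGTGGCGC and CTCTGGGC can overlap an adjoining CGCT or CGCCGCTG. The following stretches of the GRCh38 plus strand, the coding strand of the members, lie before the start. They show the member of highest fold in each of the 4 large groups beside a member of the same group with no region. Capitals mark the shared 8 letters or, in PCDHGB3, which lacks them, CGCT.
PCDHA4, with a region (chr5:140806966-140807025): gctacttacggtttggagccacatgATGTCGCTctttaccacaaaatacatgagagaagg
PCDHA1, without a region (chr5:140786073-140786132): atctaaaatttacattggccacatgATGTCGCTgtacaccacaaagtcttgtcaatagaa
PCDHB2, with a region (chr5:141094530-141094589): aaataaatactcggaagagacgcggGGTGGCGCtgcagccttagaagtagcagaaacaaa
PCDHB3, without a region (chr5:141100379-141100438): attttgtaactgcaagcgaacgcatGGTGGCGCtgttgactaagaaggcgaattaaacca
PCDHGA10, with a region (chr5:141412919-141412978): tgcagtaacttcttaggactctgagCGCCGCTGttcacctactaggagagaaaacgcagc
PCDHGA1, without a region (chr5:141330391-141330450): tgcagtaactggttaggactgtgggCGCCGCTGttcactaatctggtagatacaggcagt
PCDHGB6, with a region (chr5:141407905-141407964): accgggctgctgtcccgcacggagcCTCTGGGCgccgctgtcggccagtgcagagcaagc
PCDHGB3, without a region (chr5:141370191-141370241): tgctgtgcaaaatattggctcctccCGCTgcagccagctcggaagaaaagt

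Fewer clustered protocadherin starts than other starts were accessible, and the share differed from group to group. A summit, the point of strongest signal in a region, lay within 1000 bp of an annotated transcript start in 23 of 53 members (43.4%, exact binomial 95% interval 29.8% to 57.7%), against 81.1% of all protein-coding genes. Regions were found at 5 of 13 numbered alpha genes (38.5%), 2 of 2 C-type alpha genes, 7 of 16 beta genes (43.8%), 1 of 12 gamma A genes (8.33%), 6 of 7 gamma B genes (85.7%) and 2 of 3 C-type gamma genes (66.7%). The strongest fold at a start is the authors' own enrichment of a summit over an undescribed background. Its median was 7.08 over the members with a region, against 9.71 over all protein-coding genes with one, and among members it ran from 3.41 at PCDHGB5 to 13.5 at PCDHB2. Neighbouring members share sequence and are not independent, and the interval covers counting error only. Absence from the list means that no region was called, not that a promoter was closed in every cell.

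The members' count was read against the background under each rule. It stayed at 23 of 53 with a summit within 500 bp (all protein-coding genes 79.2%), within 200 bp (76.6%), at the canonical start (76.8%), at the outermost start (73.3%), with the strongest summit of each region only (80.5%) and with any overlap of region and window (81.8%). It was 15 of 53 among rows whose −log10 p exceeded the list's median (75.7%) and 18 of 53 among rows whose fold did (73.9%). Both thresholds left 0 of 12 gamma A genes and 4 of 7 gamma B genes. The −log10 p threshold left 3 of 13 numbered alpha and 4 of 16 beta genes, and the fold threshold left 4 of 13 and 6 of 16.

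**Figure D1:**
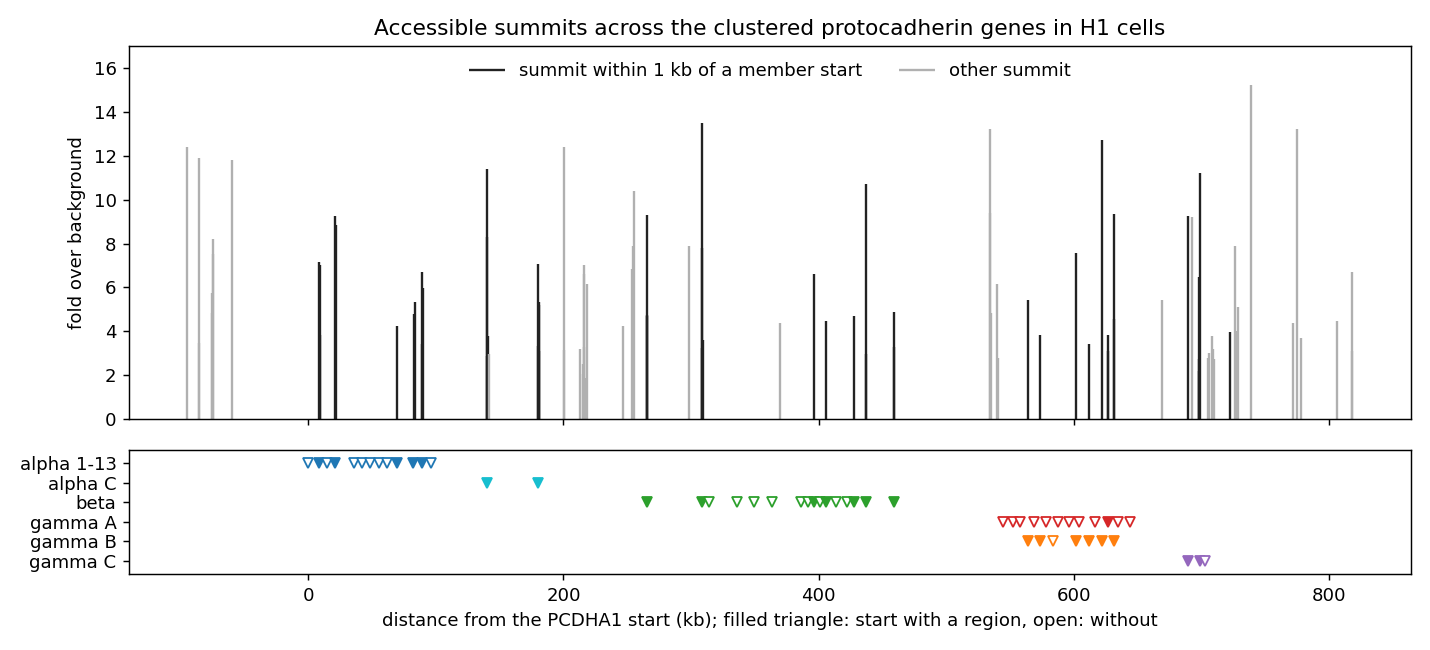
Fold of every summit (lines, upper panel; black within 1 kb of a member start, grey elsewhere) by distance in kb from the PCDHA1 start, with the start of each member by group (triangles, lower panel; filled with a region, open without). Gamma A and gamma B starts alternate along the same stretch, and 1 of 12 and 6 of 7 of them are filled.

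Gamma A and gamma B genes, whose first exons interleave, differed in how many starts were accessible, 1 of 12 and 6 of 7. PCDHGB6 had a fold of 12.7 with its summit at −21 bp, where minus means upstream of the canonical start. PCDHGB7 had 9.36 at −47 bp and PCDHGB4 had 7.56 at −53 bp. PCDHGB1 (5.43), PCDHGB2 (3.83) and PCDHGB5 (3.41) were lower. PCDHGB3 was the one gamma B gene with no region, its nearest summit lying at −10275 bp from the closest annotated start. All of them encode adhesion receptors that share the gamma constant exons.

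Among gamma A genes only PCDHGA10 had a region, with a fold of 3.85 at −15 bp. Measured from the closest annotated start, the nearest summits lay at −4082 bp for PCDHGA1, 11294 bp for PCDHGA2 and 6020 bp for PCDHGA3, the first gamma A genes in genome order. The CpG ratios of both kinds overlapped. The ratio of observed to expected CpG in 1000 bp around the start ran from 0.609 to 0.839 in gamma B genes with a region and from 0.45 to 0.913 in gamma A genes without one. Of the 31-letter words within 250 bp of the start, 67% to 68.9% occurred once in the genome at PCDHGB4, PCDHGB5, PCDHGB6 and PCDHGB7. At PCDHGB1, PCDHGB2 and PCDHGB3 it was 100%, and at gamma A genes without a region at least 99.6%. The sources used here do not say how reads matching several places were counted, and the part of repeated sequence in these folds was not tested.

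**Figure D2:**
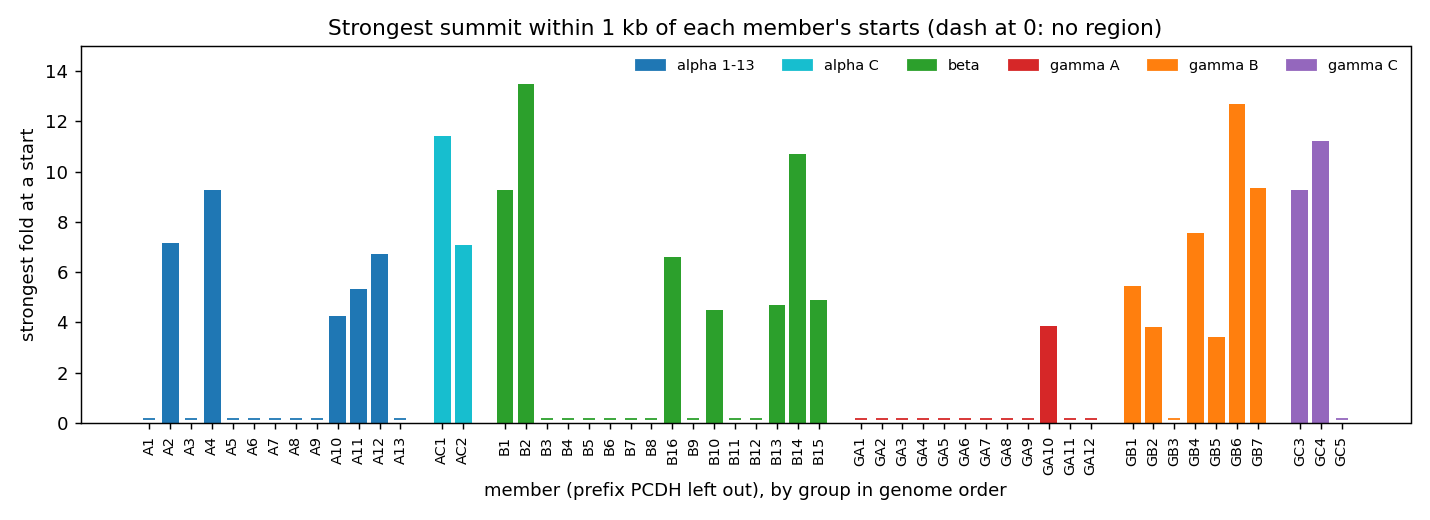
Strongest fold at any annotated start of each of the 53 members (bars, coloured by group, in genome order within a group), with a dash at 0 where no region was found. PCDHB2 (13.5), PCDHGB6 (12.7) and PCDHAC1 (11.4) are highest, and PCDHGA10 (3.85) is the one gamma A gene with a bar.

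Accessible numbered alpha starts lay towards both ends of their row, with none in the middle. PCDHA4 had a fold of 9.27 in a region at chr5:140806698-140807332, PCDHA2 had 7.14 and PCDHA12 had 6.71. PCDHA11 (5.33) and PCDHA10 (4.26) were lower. PCDHA1, PCDHA3 and PCDHA5 were the first members with no region, and their nearest summits lay at 8520, −5596 and −13945 bp from the closest annotated start. The 5 successive genes from PCDHA5 to PCDHA9 fell in a stretch of 48.2 kb with no summit. PCDHA13, the last of the numbered genes, lay in another of 50.1 kb. The share of 31-letter words occurring once was 94.5% to 100% in numbered alpha genes with a region and 94.3% to 100% in those without.

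Beta genes held both the strongest start of the family and a long run of starts with no region. PCDHB2 had a fold of 13.5 at 9 bp (chr5:141094209-141095180). PCDHB14 had 10.7 at 3 bp, and PCDHB1, which lies apart at the head of the beta genes, had 9.28 at −28 bp. PCDHB16 (6.6), PCDHB15 (4.9), PCDHB13 (4.69) and PCDHB10 (4.47) were lower. PCDHB3, PCDHB4, PCDHB5 and PCDHB6 lay within 60.3 kb with no summit, and PCDHB7, PCDHB8, PCDHB9, PCDHB11 and PCDHB12 also had no region. The region at PCDHB14 also serves as a start region of an overlapping protein-coding gene, ENSG00000279983. The shares of 31-letter words occurring once were lowest among beta genes at PCDHB13 (56.6%), which had a region, and PCDHB8 (61.3%), which had none.

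C-type genes other than PCDHGC5 had a region at a start, as had 81.1% of all protein-coding genes. Both C-type alpha genes lay in broad regions of several summits. Start regions of all protein-coding genes had a median width of 858 bp, and 63.8% held several summits. Among other members, PCDHB1 also had a broad region, of 1364 bp with 3 summits. PCDHAC1 had a fold of 11.4 at 305 bp within its untranslated sequence, in a region of 1642 bp with 5 summits (chr5:140925942-140927583). PCDHAC2 had 7.08 at −29 bp in a region of 1222 bp with 4 summits, and a further region of fold 3.34 upstream. PCDHGC4 had 11.2 at −39 bp (chr5:141484542-141485514) and PCDHGC3 had 9.27 at −64 bp. PCDHGC3 also had a region of fold 3.97 with its summit 777 bp from the start of a transcript late in the gamma cluster. PCDHGC5 alone of the C-type genes had no region: its nearest summit, of fold 2.78, lay 2531 bp downstream of a start, and its CpG ratio of 0.192 was the lowest of the 53. A summit of PCDHGC4 at −961 bp from its nearest annotated start (−994 bp from the canonical one) lay just inside the 1000 bp window, and no member was called through it alone.

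Starts of middling CpG ratio were seldom without a region in the genome as a whole but often so here. The median CpG ratio was 0.664 over the 53 members, against 0.725 over all protein-coding genes. In deciles 4 to 8 of the ratio, 18 of 39 members had a region (46.2%), against 96% of 10016 protein-coding genes. The gap was smaller in decile 3, with 5 of 12 members against 59.1% of protein-coding genes. In deciles 1 and 10, 0 of 1 member each had a region, against 31.6% and 98.9%. If each member had its decile's share, 85.5% would have one. G+C content was lower, with a median of 44.4% in members against 61.3% in all protein-coding genes. The deciles are of the ratio alone and do not match members to other genes in G+C or in number of CpGs. Within the family the median CpG ratio was 0.655 in members with a region and 0.664 in those without. Beta genes had the lowest group median, 0.494.

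**Figure D3:**
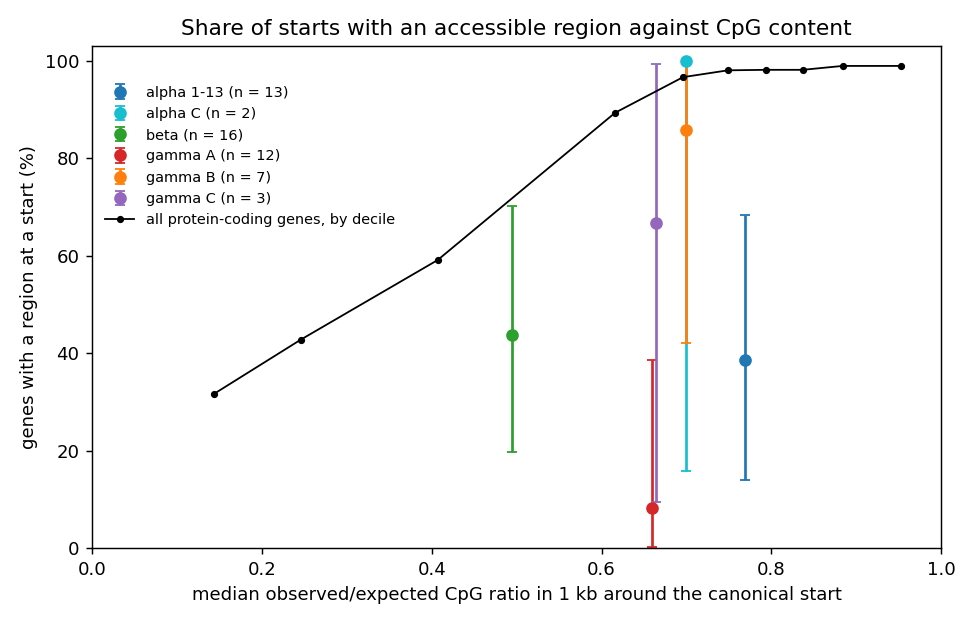
Percent of genes with a region at a start against the median ratio of observed to expected CpG, for the 6 member groups (coloured points with 95% exact binomial intervals) and for deciles of all protein-coding genes (black). Numbered alpha (38.5%), beta (43.8%), gamma A (8.33%), gamma B (85.7%) and gamma C genes (66.7%) lie below the black line and alpha C (100%) above it, and the intervals of alpha C and gamma B overlie each other at the same ratio.

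Summits at the members lay close to the canonical start, at varying distances from the shared letters. All 23 members with a region had a summit between −200 and 50 bp of the canonical start. A near summit was also usual elsewhere. Of all protein-coding genes, 16254 had a summit within 1000 bp of any start and 15343 had one within 200 bp. Of the 23 members, 20 (87%) had a summit between −60 and 5 bp. The share was 36.8% of the 15381 protein-coding genes with a region at the canonical start. That band was not planned and closely encloses the members' own summits, so the contrast is only a description of them. Counted from the first letter of ATGTCGCT, the summit was 4 bp downstream in PCDHA4, 12 bp in PCDHA12, 18 bp in PCDHA2 and 44 bp in PCDHA10. From GGTGGCGC it was 6 bp in PCDHB13, 18 bp in PCDHB10 and 28 bp in PCDHB16, and 69, 72 and 75 bp in PCDHB2, PCDHB14 and PCDHB15. For PCDHB15 the summit used was that at 5 bp (fold 3.3), not its strongest, at 214 bp (fold 4.9). From CGCCGCTG the summit was 28 bp downstream in PCDHGA10. From CTCTGGGC it was 22 bp in PCDHGB4, 23 bp in PCDHGB1, 29 bp in PCDHGB5, 41 bp in PCDHGB7 and 70 bp in PCDHGB6. Regions at member starts had a median width of 466.5 bp, against 858 bp at the starts of all protein-coding genes. Several summits were found in 40% of the members' regions, against 63.8%. Gamma B regions were the narrowest, with a median of 261 bp.

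Of the 13 numbered alpha genes, 4 had a further summit within the coding sequence of the variable exon. It lay at 580 bp in PCDHA2 (fold 7.03), 591 bp in PCDHA4 (8.84), 596 bp in PCDHA11 (5.33) and 608 bp in PCDHA12 (5.96). Near the start the same genes had 7.14, 9.27, 4.79 and 6.71. PCDHA10 was the only one of the 5 with a region that had no such summit. Between 550 and 650 bp, PCDHAC2 had a summit (fold 5.34) and no beta or gamma gene did. Of all protein-coding genes with a region at the canonical start, 13% had one there. This band too was not planned and lies around the alpha summits themselves.

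**Figure D4:**
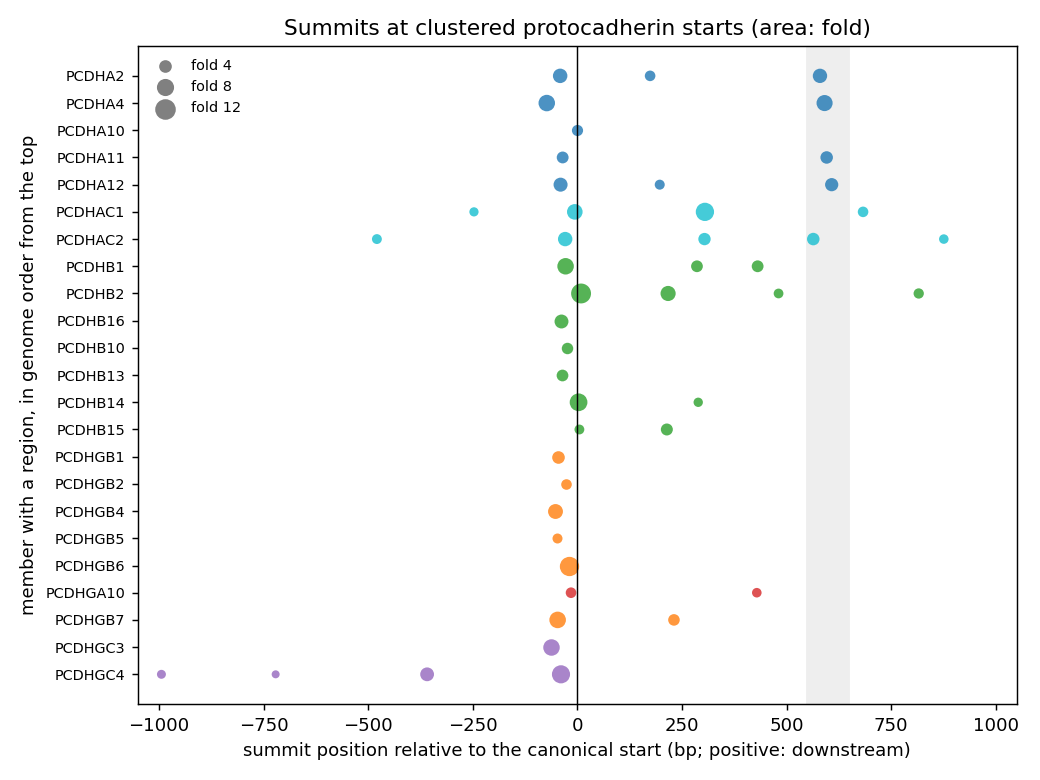
Position in bp of each summit within 1000 bp of the canonical start, for the 23 members with a region (point area follows fold, colours by group). All have a point close to the start, and PCDHA2, PCDHA4, PCDHA11, PCDHA12 and PCDHAC2 have another in the grey band from 550 to 650 bp.

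A CTCF core motif occurred in many of these exons, with and without the summit. The motif searched was CC, any 3 bases, AG, any 2 bases and GGC, read on both strands. Between 500 and 700 bp after the canonical start it was found on the coding strand in 8 of 13 numbered alpha genes (61.5%). The same window held it in 0 members of each other group and in 2.77% of all protein-coding genes. That window was not planned and encloses the alpha exonic summits, so the contrast only describes these genes. PCDHA4 and PCDHA12 had both the match and the exonic summit. PCDHA2 and PCDHA11 had the summit with no match, and PCDHA5, PCDHA7, PCDHA8, PCDHA9, PCDHA10 and PCDHA13 had the match with no summit. These exonic matches, shown in capitals, begin 576, 621, 571 and 601 bp after the start in the genes listed, in that order.
PCDHA4, with an exonic summit (chr5:140807628-140807671): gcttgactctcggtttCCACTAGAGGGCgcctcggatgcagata
PCDHA12, with an exonic summit (chr5:140875913-140875956): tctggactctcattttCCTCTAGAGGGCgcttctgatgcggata
PCDHA7, without one (chr5:140834824-140834867): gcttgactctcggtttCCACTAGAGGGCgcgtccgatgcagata
PCDHA13, without one (chr5:140882709-140882752): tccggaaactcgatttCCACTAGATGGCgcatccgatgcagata

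Before the start the same motif was rare. In the 250 bp before the canonical start it was found on either strand in 1 of 53 members, PCDHB9 (1.89%), against 11.1% of all protein-coding genes. The fixed bases of the motif are G or C except for the A. Median G+C around the start was 44.4% in members against 61.3% in all protein-coding genes, and the part of base composition in this difference was not tested. Within 50 bp of a summit it was found in 3 of 30 member start regions (10%, exact binomial 95% interval 2.11% to 26.5%). Those were the exonic region of PCDHA4, the single region of PCDHA12, which spans its start and its exonic summit, and the PCDHAC1 region, all on the coding strand. The share was 14.6% in 23933 start regions of all protein-coding genes and 10.8% in all 160327 regions. A missing match says only that these letters are not in the window.

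Between and around the genes, the span from 100 kb before the first to 100 kb after the last member held 64 regions with 99 summits, 30 of the regions at member starts. From the first to the last member there were 51 regions in 726.8 kb, or 7.02 per 100 kb, against 5.78 on chromosome 5 and 5.46 in the genome. From PCDHGC3 to the end of the gamma constant exons the density was 28.9, at a low median fold of 3.79. From PCDHAC1 to the end of the alpha constant exons it was 10.3, and between PCDHB15 and PCDHGA1 it was 2.5. All 8 regions between PCDHA1 and PCDHAC1 were at member starts.

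The highest fold in the span, 15.2, lay beyond the gamma genes at chr5:141524514-141525417, in an intron of DIAPH1, an actin-assembly gene on the opposite strand. A second DIAPH1 intron region, at chr5:141560621-141561143, had 13.2. The start of TAF7, a subunit of a general transcription factor, had 13.2, and the shared start region of HARS1 and HARS2, which encode histidine tRNA synthetases, had 12.4. A region at chr5:140986019-140986974 also had 12.4 and lay 19906 bp after the PCDHAC2 start, within an intron of all 15 alpha genes. ZMAT2 had 11.9 at its start, and SLC25A2, a mitochondrial carrier gene, had no region. Between the alpha and beta genes, regions at chr5:141039983-141040489 (fold 6.83) and chr5:141040794-141041482 (10.4) had their summits at −11069 and −10146 bp from PCDHB1.

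Anywhere within a region, the motif was found on the plus strand in 10 of 64 regions of the span (15.6%) and on the minus strand in 5 (7.81%), against 9.69% and 9.56% of all 160327 regions. On the plus strand it was found in 3 of 8 regions from PCDHA1 to PCDHAC1 and in 4 of 9 from there to the end of the alpha constant exons, and on the minus strand in 0 of both. Between the alpha and beta genes it was found on the plus strand in 0 of 3 regions and on the minus strand in 2. From PCDHGA1 to PCDHGC3 it was found on the plus strand in 1 of 8 regions and on the minus strand in 0. From PCDHGC3 to the end of the gamma constant exons each strand had it in 1 of 11 regions, and in the 100 kb after them the plus strand had it in 1 of 9 and the minus strand in 2. The 3 remaining stretches, the flank before PCDHA1, the beta genes and the gap between beta and gamma genes, held it on neither strand. The region of fold 15.2 had it on the minus strand, at −3 bp from the summit, while the other 4 of the 5 strongest regions away from member starts held it on neither strand. The matches between the alpha and beta genes lay 58 and 144 bp from the summits. They are shown on the plus strand, with capitals for the reversed motif.
Between alpha and beta, first region (chr5:141040347-141040390): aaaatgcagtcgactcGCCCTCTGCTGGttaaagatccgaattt
Between alpha and beta, second region (chr5:141041356-141041399): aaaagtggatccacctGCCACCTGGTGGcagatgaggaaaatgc
After the gamma genes (chr5:141524878-141524921): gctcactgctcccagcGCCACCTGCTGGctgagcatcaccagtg

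Protocadherin genes outside the clusters had a region at a start in 12 of 12 cases, and this and the following counts stand beside 81.1% of all protein-coding genes with a median fold of 9.71. Their folds ran from 3.87 at PCDH1 to 21.4 at PCDH15, with a median of 8.89, and PCDH20 (16) and PCDH12 (14.7) came next to the highest. Genes for regulators known to act at the clusters had one in 15 of 15 cases, at folds from 6.11 to 13.9. WAPL, which releases cohesin from DNA, had 13.9, the cohesin subunit genes SMC3 and RAD21 each had 12.4, and CTCF had 8.89. All 8 of 8 markers of pluripotent cells had a region, with folds of 4.69 to 11.2, and so had 3 of 4 neural progenitor markers and 2 of 3 fibroblast markers, with none at SIX3 and COL3A1. An open promoter does not tell which genes were transcribed. Since the list pools all cells, regions open in few cells and regions weakly open in all cannot be told apart.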

How the data were processed

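ATAC-seq of 2 H1 samples, of about 70000 cells each, was represented by 1 list for both. Per the labels it is an optimal set of an overlap, and per the submitters' processing notes the build was GRCh38. No source used here names the aligner, peak caller, filters or read shift, or gives depths, so the depth is unknown. The deposited fold is a ratio to an undescribed background. The deposited −log10 p served only to filter regions, and the deposited score was not used. Units follow the narrowPeak layout and the values.

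Rows with equal chromosome, start and end were 1 region, giving 236878 summits in 160327 regions. GENCODE release 44 gave transcript starts, and the GRCh38 sequence was read with pysam 0.24.0. A gene had a region if a summit lay within 1000 bp of any of its transcript starts. Its fold was that of the strongest such summit. Intervals are exact (Clopper-Pearson, scipy 1.17.1). The calling step was tested on simulated data. Windows, start definitions, thresholds and motif letters were varied.

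The members, lists and rules were chosen with earlier results of these data known. Named by rule were all C-type genes, PCDHB1, in each group the 3 highest members and the first 3 with no region, the 5 strongest regions away from member starts, genes starting in the span, and the 3 highest of the non-clustered protocadherins and of the regulators. Other members, other regions, PCDH1, CTCF and the motif letters were chosen after their values were seen. The bands of summit position, the exonic motif window and the range of CpG deciles were also not planned.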

Additional observations from a re-analysis of the deposited data

How the results depend on the processing

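The 23 members with a region were the same 23 genes with windows of 500 or 200 bp, at the canonical or outermost start, with the strongest summit only and by overlap. With fold above the list's median 18 of them remained, and with −log10 p above its median 15. The 8 lost at the second threshold were PCDHA10, PCDHA11, PCDHB10, PCDHB13, PCDHB15, PCDHGB2, PCDHGB5 and PCDHGA10. The median fold ran from 7.08 to 9.27 over these settings. The 64 regions of the span became 38 with −log10 p above the median, 40 with fold above the median, 51 with no flanks and 99 with every summit counted, as these settings keep fewer rows or count summits. The share of member start regions with the CTCF motif was lowest, 3.33%, under a stricter motif added after seeing the data. It was highest, 20%, within 100 bp of a summit or anywhere in the region. The shares of 14.6% in all start regions and 10.8% in all regions hold for 50 bp of a summit only. Anywhere in a region, 9.69% of all regions had the motif on the plus strand and 9.56% on the minus strand. Before the start the share of members was 1.89% throughout. No paired analysis was possible because the list has no values per sample, and for the same reason no replicate was left out. As the depth is unknown, the regions it may have missed cannot be counted.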
